A study of Mus musculus with 6 samples.

Results

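The genes described here encode machinery of V(D)J recombination, the process by which developing lymphocytes cut and rejoin antigen receptor gene segments. They were chosen by symbol and not by their values, and all 8 of 8 chosen symbols have a row among the 17169 gene entries of the deposited table. Rag1 and Dntt are made by immature lymphocytes, while Xrcc5, Xrcc6, Prkdc, Dclre1c, Xrcc4 and Lig4 serve DNA end joining in all cells. The samples were 3 mouse cell lines, titled BBC, ZNF and BCRF8C, taken from bone marrow of diseased Balb/c mice. Their disease, abbreviated SCLL for stem cell leukemia/lymphoma, arises from fusion kinases that contain FGFR1, a growth factor receptor. Each line was cultured for 24 h with BGJ398, an inhibitor of FGFR kinases, or with DMSO, its solvent, and 1 library was made per line and agent. Read in the order of the protocol's list, the inhibitor doses were 30 nM for BBC, 3 nM for ZNF and 1.5 nM for BCRF8C. Dose and line then cannot be told apart. All 3 lines carry the disease, none is an untransformed control, and the labels do not say whether a line is 1 clone.

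As background, the RAG1 and RAG2 proteins together form the recombinase that cuts at recombination signal sequences beside V, D and J segments and leaves hairpin ends on the coding segments. Ku70 and Ku80 (Xrcc6 and Xrcc5) bind the ends and recruit the kinase DNA-PKcs (Prkdc), which activates the nuclease Artemis (Dclre1c) to open the hairpins. Terminal deoxynucleotidyl transferase (Dntt) adds nucleotides without a template, and XRCC4 with DNA ligase IV (Lig4) seals the joint. In normal development B cell precursors use these steps to build immunoglobulin genes and thymocytes to build T cell receptor genes. The deposited values are FPKM, fragments scaled to transcript length and to library size, so that levels can be compared between genes. Rag2 was not analysed here.

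The 6 libraries differed in the range of their values. Among 14232 entries averaging 1 FPKM or more, the median was 8.36 to 9.95 FPKM in the 3 DMSO libraries and 4.53 to 6.47 FPKM with BGJ398, and the number of entries at 100 FPKM or more was 982 to 1052 against 283 to 585. Sequencing depth is unknown. The table also has a floor within each line: of the entries listed above 0 in a line, 100% in BBC, 98.1% in ZNF and 98.8% in BCRF8C reached 1 FPKM in at least 1 of its 2 libraries. An entry under 1 FPKM with DMSO was therefore nearly always above it with BGJ398, and a listed 0 in ZNF and BCRF8C always stood in both libraries of the line, so it need not be a measured 0. In reverse, 100% of listed entries under 1 FPKM with BGJ398 in BBC were at or above it with DMSO. That share was 51.8% in ZNF and 69.8% in BCRF8C. Log2 ratios are differences of log2(FPKM + 1), BGJ398 minus DMSO, a scale that understates changes of low values. Each is given as deposited and, where it matters, with the dependence of ratio on expression level taken out of the line. P-values came from limma with the line as a block, adjusted by Benjamini-Hochberg over all 14232 entries and called under 0.05. No source says that cultures were repeated, so the error behind each p-value is the scatter among 3 distinct lines.

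The recombinase gene Rag1 (ENSMUSG00000061311) was high in 1 line only. Its level was 272 FPKM in ZNF with DMSO and 482 FPKM with BGJ398. In BBC it was 0.360 FPKM with DMSO and 1.69 FPKM with BGJ398. In BCRF8C it was listed at 0.001 FPKM with DMSO, a value that 1233 entries of that library share, and at 1.59 FPKM with BGJ398. Both ZNF libraries thus lay far above the other 4, and the BBC and BCRF8C libraries lay side by side. As a rank, Rag1 exceeded 97.6% of all entries in ZNF with DMSO and 9.78% in BBC. In bulk RNA a smaller share of cells with a transcript and less RNA per cell cannot be told apart.

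The transferase gene Dntt (ENSMUSG00000025014, chromosome 19, 41103765 to 41134013 in NCBIM37) followed another order. In ZNF it was at 264 FPKM with DMSO and 260 FPKM with BGJ398. In BBC it was at 61.1 FPKM with DMSO and 118 FPKM with BGJ398. Both BCRF8C libraries listed it at 0, which under the floor of the table may stand for a low level. The lines therefore did not overlap in Dntt, with ZNF above BBC and BBC above BCRF8C under both agents, and ZNF was 4.32-fold above BBC in DMSO and 2.20-fold above it with BGJ398. BBC held Dntt without appreciable Rag1: within that line Dntt stood 170-fold above Rag1 in DMSO and 69.9-fold above it with BGJ398, while in ZNF the ratio of the pair was 0.970 and 0.540.

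**Figure D1:**
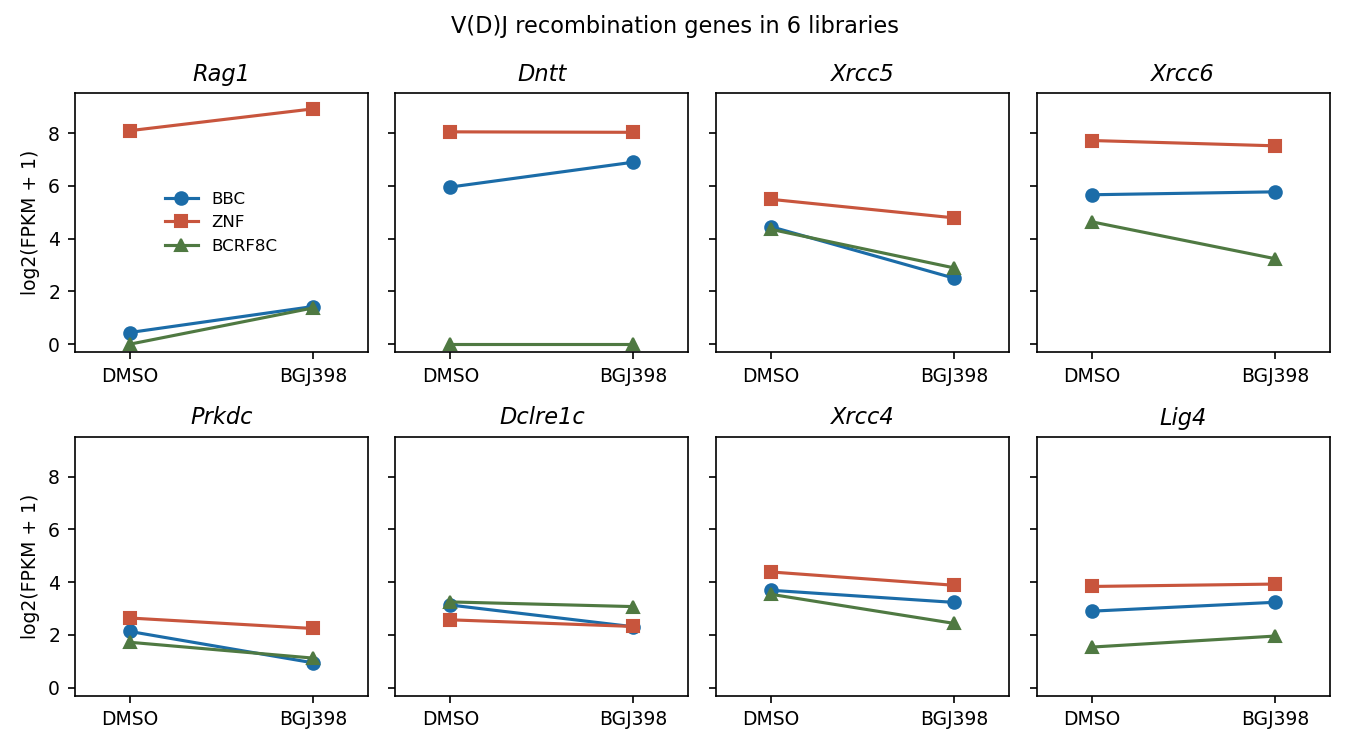
Level of each gene on the log2(FPKM + 1) scale (y axis) with DMSO and BGJ398 (x axis) in BBC, ZNF and BCRF8C, 1 library per point. Rag1 is near 0 in BBC and BCRF8C and high in ZNF, Dntt is high in BBC and ZNF and at 0 in BCRF8C, and the end joining genes span narrower ranges.

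Sequence immediately upstream of the start is shown for these lymphoid genes and for Lig4, the end joining gene whose level was most like that of Dntt across libraries. These windows differed in their content of CG dinucleotides, and that of Lig4 held the most among the V(D)J genes with a window. The sequences are RefSeq promoters of GRCm38.p6, a newer build than the NCBIM37 of the values, cut to the 250 bases before the annotated start. Capitals mark each CG. Rag1 is at chr2:101649533-101649782 (minus strand), Dntt at chr19:41029025-41029274 (plus strand) and Lig4 at chr8:9976312-9976561 (minus strand, the nearer of 2 annotated starts).
Rag1: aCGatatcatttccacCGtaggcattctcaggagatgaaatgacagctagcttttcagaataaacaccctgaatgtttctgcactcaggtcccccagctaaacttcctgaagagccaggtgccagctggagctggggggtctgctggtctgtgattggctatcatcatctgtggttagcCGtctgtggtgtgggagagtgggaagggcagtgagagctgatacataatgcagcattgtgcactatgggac
Dntt: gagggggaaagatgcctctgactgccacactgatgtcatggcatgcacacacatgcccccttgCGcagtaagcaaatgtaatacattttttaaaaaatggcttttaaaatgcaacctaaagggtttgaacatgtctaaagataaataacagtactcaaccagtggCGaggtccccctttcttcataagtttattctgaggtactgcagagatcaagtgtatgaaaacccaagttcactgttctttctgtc
Lig4: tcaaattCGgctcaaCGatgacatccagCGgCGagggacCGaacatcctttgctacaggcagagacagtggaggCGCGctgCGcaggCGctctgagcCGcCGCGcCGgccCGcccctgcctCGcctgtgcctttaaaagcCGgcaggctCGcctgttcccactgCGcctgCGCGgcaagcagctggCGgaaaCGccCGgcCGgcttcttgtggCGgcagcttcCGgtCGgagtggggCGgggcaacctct

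The Rag1 window held 3 CG dinucleotides and the Dntt window 2, below the median of 6 over 32851 RefSeq windows of the same length. Such counts are common: 37.8% of all windows held 3 or fewer and 29.0% held 2 or fewer. The Lig4 window held 28, more than 92.4% of all windows. Of the 8 genes 7 matched a window, and Prkdc did not. Xrcc4 held 26 CG, Xrcc6 25, Dclre1c 8 and Xrcc5 5, so the end joining genes ranged from below the median to high and not all of them were rich in CG. In the GENCODE vM21 annotation, exons of Desi1 and Xrcc6 cover 250 bases of the Xrcc6 window, and exons of Tmem167 cover 175 of the Xrcc4 window. They cover 0 bases of the Dclre1c and Xrcc5 windows and of the windows printed above. The E-box letters CANNTG, which read the same on both strands, occurred 3 times in the Rag1 window and 3 times in the Dntt window, and 66.2% of all windows held at least 1. The letters CCAAT on either strand occurred once in the Rag1 window and not in that of Dntt, and 33.8% of all windows held them. These matches describe letters and not binding.

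In each of the 3 DMSO libraries the Ku genes had the highest levels of the end joining class. Xrcc6 (Ku70, ENSMUSG00000022471) was at 49.7 FPKM in BBC with DMSO and 53.7 FPKM with BGJ398. In ZNF it was at 210 and 182 FPKM, and in BCRF8C at 23.9 and 8.47 FPKM. The lines did not overlap, and the order was that of Dntt. Xrcc5 (Ku80, ENSMUSG00000026187, chromosome 1, 72353995 to 72441526) had 20.9 FPKM with DMSO and 4.66 FPKM with BGJ398 in BBC, and went from 44.0 to 26.6 FPKM in ZNF and from 19.5 to 6.42 FPKM in BCRF8C. Both ZNF libraries were above the other 4, while BBC and BCRF8C overlapped. The proteins act as a heterodimer, yet the transcripts did not keep 1 ratio: Xrcc6 stood 2.38-fold above Xrcc5 in BBC with DMSO and 11.5-fold above it with BGJ398, 4.77-fold and 6.85-fold in ZNF, and 1.23-fold and 1.32-fold in BCRF8C.

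With DMSO the kinase and nuclease genes had lower FPKM than either Ku gene in every line. Prkdc (ENSMUSG00000022672, chromosome 16, 15637959 to 15842332) had 3.39 FPKM with DMSO and 0.926 FPKM with BGJ398 in BBC, and went from 5.24 to 3.74 FPKM in ZNF and from 2.30 to 1.18 FPKM in BCRF8C. The ZNF libraries were again above the other 4. Dclre1c (ENSMUSG00000026648) had 7.78 FPKM with DMSO and 3.96 FPKM with BGJ398 in BBC, and went from 4.95 to 4.0005 FPKM in ZNF and from 8.52 to 7.42 FPKM in BCRF8C. It was the single gene of the 8 in which ZNF was not above the other lines: in DMSO BCRF8C and BBC were both higher than ZNF, and with BGJ398 BBC and ZNF were nearly equal.

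The ligation genes ordered the lines alike with DMSO. Xrcc4 (ENSMUSG00000021615) had 11.9 FPKM with DMSO and 8.41 FPKM with BGJ398 in BBC, and went from 19.9 to 13.8 FPKM in ZNF and from 10.6 to 4.42 FPKM in BCRF8C. Lig4 (ENSMUSG00000049717, chromosome 8, 9970020 to 9977686) had 6.47 FPKM with DMSO and 8.43 FPKM with BGJ398 in BBC, and went from 13.3 to 14.2 FPKM in ZNF and from 1.91 to 2.88 FPKM in BCRF8C. Lig4 did not overlap between lines, whereas Xrcc4 of BBC with BGJ398 lay below Xrcc4 of BCRF8C with DMSO. Lig4 was thereby 6.97-fold higher in ZNF than in BCRF8C with DMSO, against 1.87-fold for Xrcc4, whose protein it binds.

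Across the 8 genes, both ZNF libraries exceeded the other 4 in 7 (all but Dclre1c), against 7.55% of the tested entries. Of the gene lists described below, 0 of 18 end joining and break response partners had this pattern. It was also seen in 0 of 17 genes of homologous recombination and alternative end joining. Among list genes with a row, it was seen in 9 of 11 T-lineage genes and 9 of 23 regulators of the Rag locus. Both BCRF8C libraries were below the other 4 in 3, namely Dntt, Xrcc6 and Lig4, against 6.44% of entries. With 1 library per line and agent, these orders carry no test.

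The lines also differed in lineage markers. Summed over 9 pre-B genes, such as the surrogate light chain genes Vpreb1 and Igll1 and the B cell receptor gene Cd79b, the level was 2534 FPKM in BBC with DMSO and 1340.5 FPKM with BGJ398, while the other 4 libraries ranged from 1.63 to 10.9 FPKM. Of these genes 5 were listed at 0 in both ZNF libraries and 5 in both BCRF8C libraries, Vpreb1, Igll1 and Cd79b among them. Summed over 11 T-lineage genes the level was 1322 and 846 FPKM in ZNF, 227 and 131 FPKM in BBC and 114 and 62.6 FPKM in BCRF8C. Of 14 T-lineage genes chosen these 11 had a row, while Cd3e, Ptcra and Cd4 had none and so have no level here. With DMSO, Lat alone gave 145 FPKM of the BBC sum and Thy1 92.3 FPKM of the BCRF8C sum. Not all of these genes were high in ZNF: Cd5 was listed at 0 in both its libraries. Cd3d, a chain of the T cell receptor complex, was at 119 FPKM in ZNF with DMSO, 0.338 FPKM in BBC and listed at 0 in BCRF8C. BCRF8C was under 1 FPKM for all 9 pre-B genes with DMSO and for 6 of 11 T-lineage genes. Sums over the 4 myeloid genes with a row, of 11 chosen, were between 0.0488 and 8.13 FPKM in all libraries. Those over the 3 stromal genes with a row, of 6 chosen, were between 0.372 and 17.4 FPKM. For the 4 erythroid genes with a row, of 8 chosen, the sums with DMSO were 357 FPKM in BBC, 583 FPKM in ZNF and 375 FPKM in BCRF8C. Of these, the transferrin receptor gene Tfrc gave 333, 577 and 375 FPKM. The share of lineage differences in the levels of Rag1 and Dntt was not tested.

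The receptor loci that the recombinase acts on were transcribed by line. Of 13 antigen receptor constant genes chosen, 6 had a row. The kappa light chain constant gene Igkc was at 2234 FPKM in BBC with DMSO and 3726 FPKM with BGJ398, the lambda genes Iglc2 and Iglc3 at 377 and 231 FPKM with DMSO and 308 and 193 FPKM with BGJ398. Iglc2 and Iglc3 were listed at 0 in the other lines, and their sequences are alike, so that reads may be shared between them. The beta chain constant gene Trbc2 was at 365 and 212 FPKM in ZNF and at most 1.79 FPKM elsewhere. The alpha chain constant gene Trac parted the lines less. With DMSO and BGJ398 it was at 16.2 and 3.82 FPKM in ZNF, 3.56 and 1.05 FPKM in BCRF8C and 1.79 and 2.29 FPKM in BBC. BBC therefore combined high light chain constant transcripts with a Rag1 level of 0.360 FPKM, whereas ZNF combined Trbc2 with a Rag1 level of 272 FPKM.

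**Figure D2:**
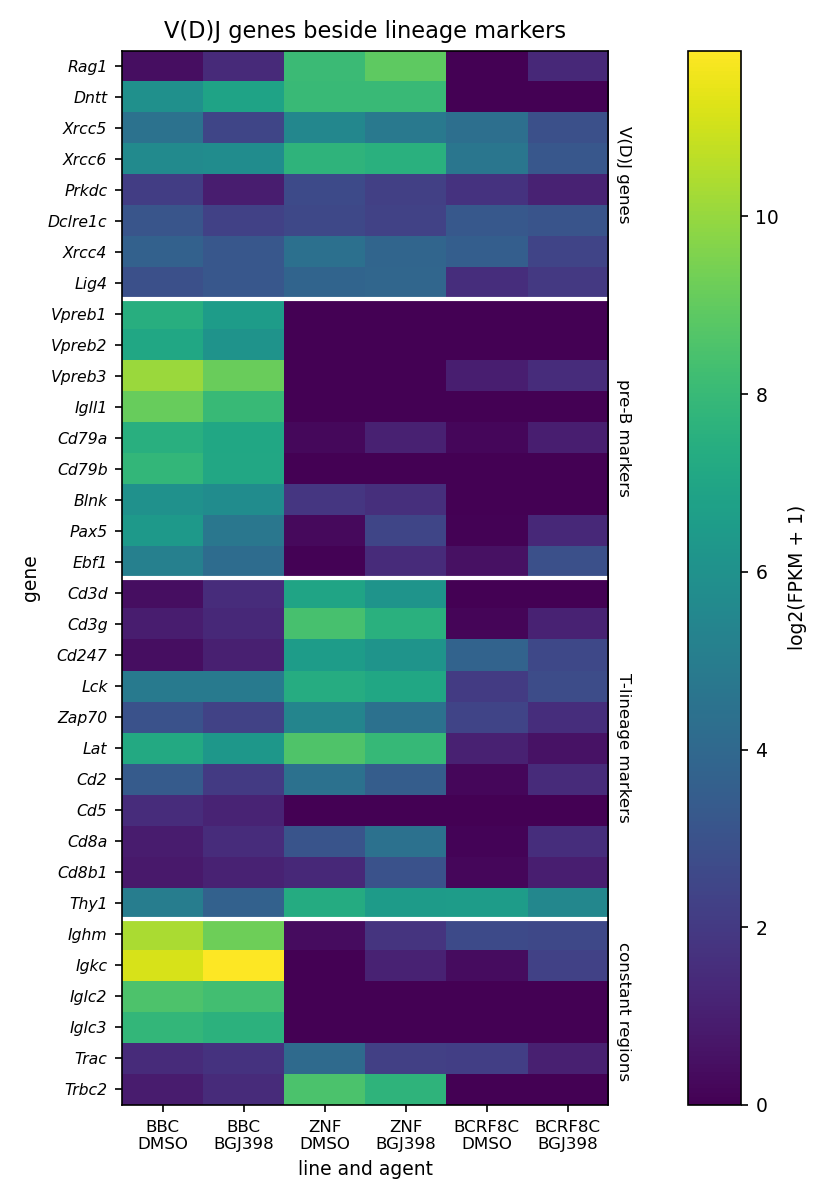
Colour gives log2(FPKM + 1) for the 8 V(D)J genes, 9 pre-B markers, 11 T-lineage markers and 6 antigen receptor constant genes (rows) in the 6 libraries (columns). Dntt is high in the BBC and ZNF columns, Rag1 in the ZNF columns alone, and most markers of both lineages are low in the BCRF8C columns, Thy1 being an exception.

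By Pearson's r over the 6 libraries on log2(FPKM + 1), the genes most like Rag1 among 9133 candidates were Gm17543 (0.995), the protease inhibitor gene Spint2 (0.994), the phosphatase gene Ptpn14 (0.990), Cd3g (0.989), a chain of the T cell receptor complex, and Meis3 (0.989). Dntt was most like Sytl1 (0.996), AL663077.1 (0.996), the small nucleolar RNA gene SNORD77 (0.994), Spata13 (0.992) and the transcription factor gene Ets1 (0.989). Like Dntt, Sytl1, AL663077.1 and SNORD77 were listed at 0 in both BCRF8C libraries, which need not be a measured 0. With DMSO, Ets1 stood at 180 FPKM in ZNF, 77.4 FPKM in BBC and 8.12 FPKM in BCRF8C. Among the V(D)J genes, Lig4 was the most like Dntt (0.971), followed by Xrcc6 (0.905), while Rag1 and Dntt themselves gave 0.672. These 6 points are 3 pairs from the same line, so each r rests mainly on the order of the lines.

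The design asks how inhibition of FGFR1 alters the transcriptomes, and the V(D)J genes split in this comparison. Xrcc5 was lower with BGJ398 in 3 of 3 lines and passed the test, at -1.37 ± 0.63 (mean log2 ratio and SD over 3 lines; limma adjusted p = 0.0368). Rag1 was higher in 3 of 3 lines and passed it too, at 1.06 ± 0.28 (limma adjusted p = 0.0388). In BBC and BCRF8C, however, Rag1 was under 1 FPKM with DMSO, and the floor of the table lists such entries almost only if they are higher with BGJ398, so that only the ZNF ratio was free to take either sign. Of the 941 entries called higher, 88.6% had crossed 1 FPKM upward in some line in this way, against 5.56% of those called lower that had crossed it downward. The other 6 did not pass. Thus 2 of 8 genes were called, against 36.8% of all entries, with 1 lower (background 30.2%) and 1 higher (background 6.61%). Over 12 alternatives Rag1 passed in 5 (limma adjusted p from 0.0162 to 0.800) and Xrcc5 in 6 (limma adjusted p from 0.00904 to 0.475). Both calls were lost under the 3 other scalings, but their sizes moved differently. By median of ratios, by quantiles and without the trend, the mean of Rag1 was 1.45, 0.83 and 0.90 (limma adjusted p = 0.0531, 0.207 and 0.220), and with a pseudocount of 0.1 it was 2.29. That of Xrcc5 came nearer to 0, at -0.63, -0.43 and -0.28 (limma adjusted p = 0.0944, 0.359 and 0.475). With 1 line left out Rag1 had means of 0.91 to 1.18, close to the 1.06 of all lines, and did not pass (limma adjusted p from 0.210 to 0.313). Xrcc5 had -1.08 without BBC (limma adjusted p = 0.236) and -1.33 without BCRF8C (limma adjusted p = 0.140), and passed without ZNF.

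The ratios of Rag1 came from different starting levels. In ZNF it went from 272 to 482 FPKM, a 1.78-fold difference and a log2 ratio of 0.83, where the median of all entries in that line was -0.48. In BBC (0.98) and BCRF8C (1.37) it began under the floor. Of the 4041 entries under 1 FPKM in BBC with DMSO and listed above 0 in the line, 100% were at or above it with BGJ398, and in BCRF8C 95.7% of 4483 were. The values of Rag1 in these lines thus give no independent evidence of a direction. With the trend removed the ZNF ratio, 1.72, became the largest of the 3, ahead of BBC at 0.51 and BCRF8C at 0.49.

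Dntt gave a mean of 0.31 ± 0.55 (limma adjusted p = 0.5001), with the 2 BCRF8C values at 0 entered as no change. It was 1.94-fold higher with BGJ398 in BBC (log2 ratio 0.94, with the trend removed 2.72), a line where both values were far above the floor. In ZNF its log2 ratio was -0.02, or 0.89 with the trend removed. In BBC its rank went from above 90.1% to above 97.7% of entries.

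Within the end joining class the ratios were uneven. Xrcc6 gave -0.50 ± 0.80 (limma adjusted p = 0.371), split into -1.40 in BCRF8C, -0.20 in ZNF and 0.11 in BBC. Prkdc gave -0.73 ± 0.41 (limma adjusted p = 0.116) and Xrcc4 -0.69 ± 0.36 (limma adjusted p = 0.105), each lower with BGJ398 in 3 of 3 lines. In BBC, Prkdc was under 1 FPKM with BGJ398, so the floor of the table fixed its sign there. Dclre1c gave -0.42 ± 0.35 (limma adjusted p = 0.265), also lower in 3 of 3. Lig4 gave 0.28 ± 0.17 (limma adjusted p = 0.414) and was higher in 3 of 3 lines, with ratios between 0.09 (ZNF) and 0.42 (BCRF8C). In all, 4 of the 8 genes were lower in every line, against 55.7% of entries, and Rag1 and Lig4 were higher in every line, against 15.4%. The means of Xrcc6, Xrcc4 and Dclre1c lay above 0 under all 3 other scalings.

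On the FPKM + 1 scale, at least 2-fold lower values within a line were seen for Xrcc5 and Prkdc in BBC, where 45.0% of entries were that much lower. They were seen for Xrcc5, Xrcc6 and Xrcc4 in BCRF8C, where 43.5% were, and for none of the 8 in ZNF, where 16.3% were. At least 2-fold higher values were not seen for any of the 8 in BBC (background 8.79%) or ZNF (background 13.2%), and in BCRF8C only for Rag1 (background 21.7%), whose mean there lay outside the filter. With the expression trend removed the picture changed. Dntt (2.72), Xrcc6 (1.81) and Lig4 (1.45) were then at least 2-fold higher in BBC (background 13.3%), and Rag1 was in ZNF (1.72, background 10.9%). Prkdc was at least 2-fold lower in BBC (-1.16, background 10.9%) and BCRF8C (-1.46, background 13.4%), and none of the 8 was in ZNF (background 4.61%). In BCRF8C none was at least 2-fold higher (background 15.2%). Prkdc, whose rank in BBC went from above 41.4% of entries to above 6.24%, was the only one of the 8 genes below 0 in all 3 lines on both scales. It was at 0.926 FPKM in BBC with BGJ398, however. All 1165 listed entries under 1 FPKM in that library were at or above it with DMSO. The floor of the table thus fixed the sign of Prkdc in BBC as deposited. Its BCRF8C value with BGJ398, 1.18 FPKM, lay near that floor. How much lower Prkdc was also depended on the scaling. Median of ratios gave a Prkdc log2 ratio of only -0.46 for BBC and -0.016 for BCRF8C. Quantiles gave -1.65 and -1.40, nearer to the values with the trend removed. How far the floor shaped the trend at such low levels was not tested.

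**Figure D3:**
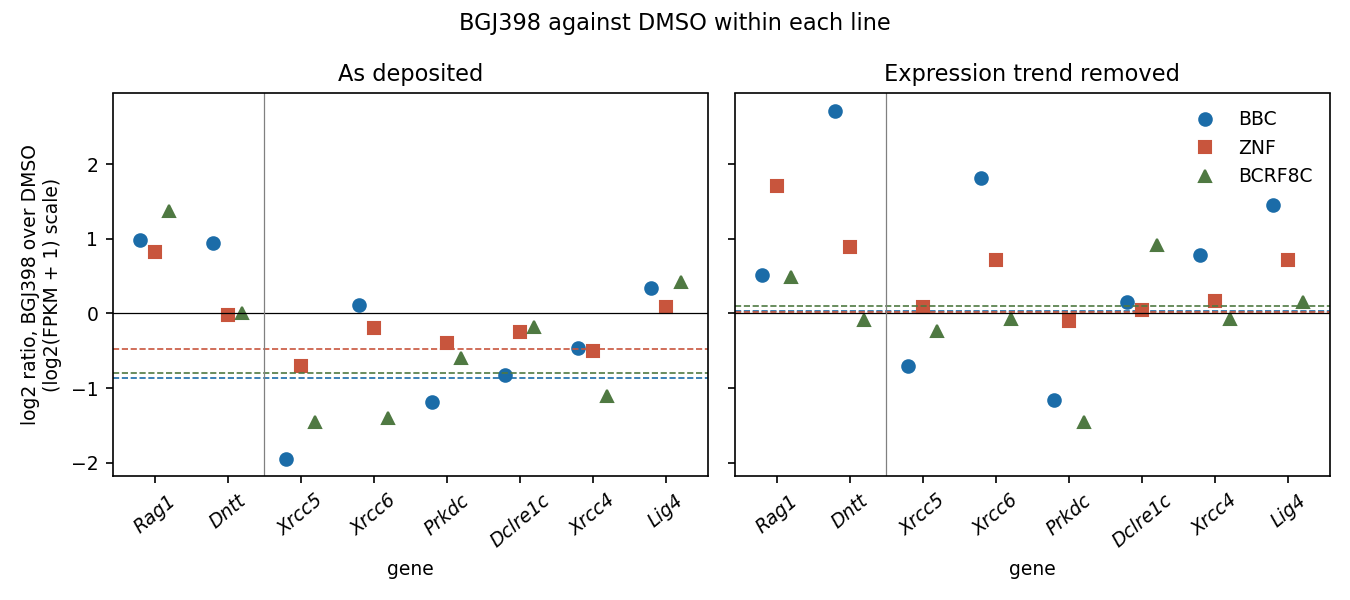
Log2 ratio of BGJ398 over DMSO on the FPKM + 1 scale (y axis) for each gene (x axis) and line, as deposited (left) and with the expression trend removed (right). Dashed lines give the median of all entries in each line, and the vertical line parts Rag1 and Dntt from the end joining genes. As deposited, Rag1 is above 0 and Xrcc5 below 0 in each line.

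Averaged within each line, Rag1 and Dntt lay above the 6 end joining genes. Their mean log2 ratios were 0.96 against -0.66 in BBC, 0.40 against -0.33 in ZNF and 0.69 against -0.72 in BCRF8C. In the same order the classes stood 1.63, 0.73 and 1.41 apart, and with the trend removed 1.23, 1.03 and 0.33. The BCRF8C value rests on Rag1 alone, at the floor of the table, since Dntt was listed at 0 there, and in BBC Rag1 also began under that floor. These are descriptions of 8 genes and carry no test.

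Calls among the other genes of the pathway were all downward. Of 18 end joining and break response partners 8 fell and 0 rose (limma; 44.4% lower, against 30.2% of all entries), with a median of -1.09 against -0.69 over all entries. H2afx, which encodes the histone variant marked at breaks, fell furthest (-3.26 ± 1.28, limma adjusted p = 0.0348). Mre11a (-1.55 ± 0.40, limma adjusted p = 0.0348) and Nbn (-1.50 ± 0.97, limma adjusted p = 0.0405), subunits of the complex that senses breaks, fell as well. Of 17 genes of homologous recombination and alternative end joining, the pathways that repair breaks otherwise, 12 fell and 0 rose (70.6% lower), with a median of -1.09. Among them were Parp1, a sensor of DNA nicks (-1.79 ± 0.67, limma adjusted p = 0.0348), Xrcc1, a scaffold for ligase III (-1.72 ± 0.97, limma adjusted p = 0.0352), and the exonuclease gene Exo1 (-1.61 ± 0.42, limma adjusted p = 0.0348). The 8 V(D)J genes had a median of -0.46. Among entries averaging at least 5 FPKM, 4910 of 9109 were called lower in limma and the median was -1.06, near the medians of both lists. Of the list genes at that level, 10 of 12 and 11 of 15 were called lower. With the trend removed the medians were -0.15 and -0.09 for the other lists, 0.57 for the V(D)J genes and 0.03 for all entries, and 0 entries passed limma (3084 at an unadjusted p under 0.05). No gene of either list passed under the other scalings or without BBC, and without BCRF8C 2 and 1 did.

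Of 23 tested regulators of the Rag locus 2 fell and 0 rose (8.70% lower, against 30.2% of all entries). They were Tcf3, which encodes the E proteins E12 and E47 (-1.44 ± 0.68, limma adjusted p = 0.0429), and Ikzf1, which encodes Ikaros (-1.32 ± 0.12, limma adjusted p = 0.0352). Irf8 (-1.44 ± 1.61, limma adjusted p = 0.0947) did not pass. Of the 23 regulators, 7 were under 1 FPKM in ZNF with DMSO (3 listed at 0) and 5 in BCRF8C with DMSO (1 listed at 0). A listed 0 was entered as no change and the floor applies to the others, so these genes could hardly be lower in those lines. The share called lower is limited by this. Spi1 and Bcl11b, also among the 25 regulators chosen, had no row. The levels of the regulators differed by line in both directions. Both ZNF libraries exceeded the other 4 in 9 of 23, against 7.55% of the tested entries. Among them, and chosen after their values were seen, Tcf7 was at 217 and 128 FPKM in ZNF and at most 4.42 FPKM elsewhere, and Satb1 at 74.5 and 69.8 FPKM in ZNF and at most 8.32 FPKM elsewhere. Other regulators were listed at 0 in ZNF. Irf4 was at 25.3 and 36.8 FPKM in BBC and at 5.36 and 4.03 FPKM in BCRF8C. Zfp608 was at 8.53 and 6.15 FPKM in BBC and at 14.1 and 6.14 FPKM in BCRF8C. Erg was at 16.9 and 19.0 FPKM in BBC and listed at 0 in both ZNF and BCRF8C. Of the other lists, Igkc (1.26 ± 0.59, limma adjusted p = 0.0418) and Cd8a (1.14 ± 0.45, limma adjusted p = 0.0427), a T cell coreceptor gene, were called higher, as was the collagen gene Col1a1 (1.77 ± 1.21, limma adjusted p = 0.0449), while the transferrin receptor gene Tfrc fell (-2.20 ± 0.54, limma adjusted p = 0.0348). With DMSO, Igkc was under 1 FPKM in ZNF and BCRF8C, Cd8a in BBC and BCRF8C, and Col1a1 in all 3 lines (0.941, 0.336 and 0.0109 FPKM), where the floor applies as for Rag1. The calls of Tcf3, Ikzf1, Igkc, Cd8a, Col1a1 and Tfrc in limma were all lost under each of the 3 other scalings, without BBC, without BCRF8C and without the block. Those of Igkc, Cd8a and Col1a1 were also lost without ZNF, and that of Cd8a at a mean of at least 5 FPKM. None of 9 pre-B and 2 tested myeloid genes passed in limma. Pre-B genes listed at 0 in both libraries of a line were entered there as no change, as Igll1 was in ZNF and BCRF8C. Its log2 ratio in BBC was -1.11. The test across lines therefore cannot show how such genes differed in BBC, where the pre-B sum was 2534 FPKM with DMSO and 1340 FPKM with BGJ398.

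**Figure D4:**
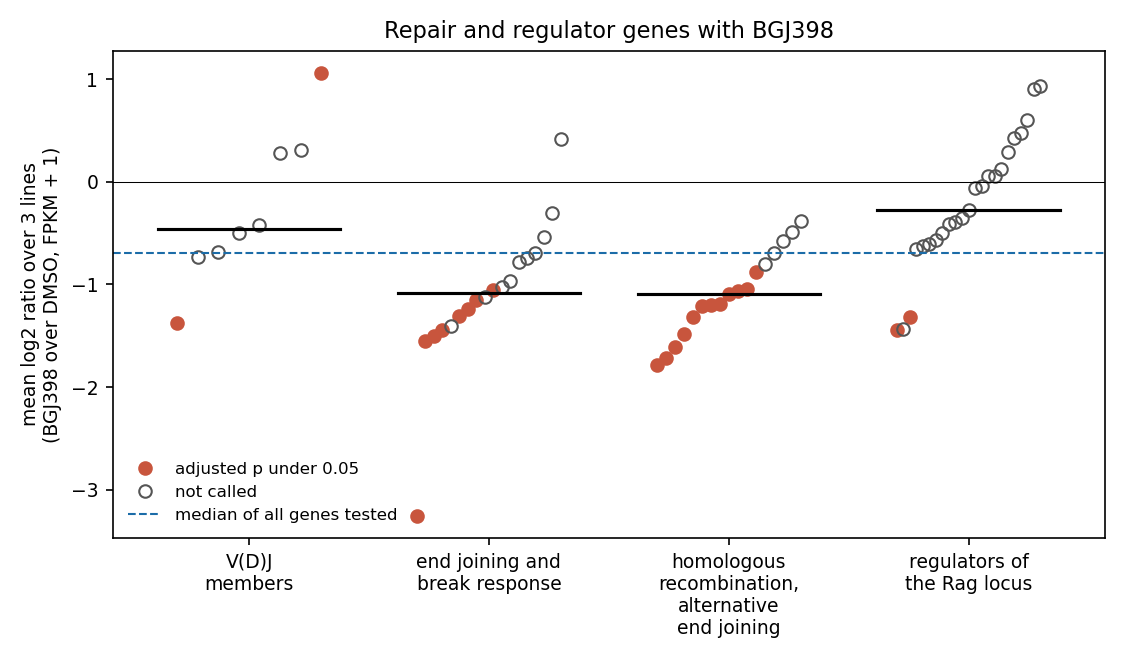
Mean log2 ratio over 3 lines, BGJ398 over DMSO on the FPKM + 1 scale (y axis), for each tested gene of 4 lists (x axis). Filled points passed limma at an adjusted p under 0.05, black bars give the list medians, and the dashed line gives the median of all entries tested, -0.69. Among the V(D)J genes the filled points are Rag1, above 0, and Xrcc5, below it.

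Some of these genes share a deposited locus with neighbours, which bears on how reads were assigned. Rag1 stands in a locus of 88752 bases on chromosome 2 (101400938 to 101489689) together with B230118H07Rik, Xrcc4 in one of 488598 bases on chromosome 13 (89794915 to 90283512), Xrcc6 on chromosome 15 (81818265 to 81870515) and Dclre1c on chromosome 2 (3341403 to 3392303). In GENCODE vM21, which is of another build, exons of a neighbour cover 1.21% of the exonic bases of Rag1, 7.27% of Xrcc4, 8.50% of Xrcc6 and 4.48% of Dclre1c, and 0 of those of the other 4 genes. The neighbours of Xrcc4, Xrcc6 and Dclre1c lie on the opposite strand, and strandedness of the libraries is not given in the sources used here.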

How the data were processed

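Total RNA of 6 cultures was sequenced, 1 library per line and agent. The authors deposited 1 table of FPKM values with 17169 entries and 6 columns, each named as 1 sample title. The submitters' processing notes list bcl2fastq, TopHat2 (2.0.12) and the build NCBIM37. The program and annotation behind the FPKM, and any filter, were not stated; the floor near 1 FPKM within each line was read from the values after the tests were chosen. Starts were raised by 1.

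Entries averaging 1 FPKM or more were fitted as log2(FPKM + 1) with limma 3.58.1 (R 4.3.3, eBayes with trend), two-sided, with the line as a block, leaving 2 residual degrees of freedom. The script was tested on simulated data. Libraries pair by line because both come from the same cells, and their deviations correlated at 0.454, 0.541 and 0.549. The expression trend was taken out by lowess in each line. The genes, lists and tests were chosen with earlier results of these data known.

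Named genes were taken from the 3 largest ratios of each list, list genes above 10 FPKM in 1 line and under 1 FPKM in another, and the 5 genes most correlated with Rag1 and with Dntt. Of the pre-B markers chosen, 1 is not reported here. Sums and counts of a list cover only its genes with a row. Where a symbol had several entries, the one with the highest mean stood. Alternatives were 3 scalings, a pseudocount of 0.1, other filters, summed entries, no block, and each line left out.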

Additional observations from a re-analysis of the deposited data

Results flagged for a closer look

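As deposited, Xrcc6 and Dntt had ratios of opposite sign in different lines. Xrcc6 was higher with BGJ398 in BBC and lower in ZNF and BCRF8C, and its highest and lowest log2 ratios were 1.51 apart. Dntt was higher in BBC and slightly lower in ZNF (log2 ratio -0.018), 0.96 apart. By median of ratios, by quantiles and without the trend, the ZNF ratio of Dntt was above 0 (0.33, 0.70 and 0.89). That of Xrcc6 in ZNF was too (0.14, 0.54 and 0.72), while in BCRF8C Xrcc6 stayed below 0 (-0.52, -0.22 and -0.075). With 1 library per line and agent neither difference was tested.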

How the results depend on the processing

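As deposited, 5236 entries and 2 of the 8 V(D)J genes passed in limma. Median-of-ratios scaling left 4 entries (3 higher, 1 lower), quantile normalization 3 (2 higher, 1 lower) and removal of the trend 0 (3084 at an unadjusted p under 0.05), with 0 of the 8 genes under each (3, 2 and 1 at an unadjusted p under 0.05). Without the line as a block, so unpaired, 7 entries and 0 of the 8 genes passed in limma (5679 entries and 0 of the 8 at an unadjusted p under 0.05). Leaving out a line gave 0 (without BBC, 2991 at an unadjusted p under 0.05) to 4974 entries, with 1648 without BCRF8C, and 0 to 1 of the 8 genes, the 1 being Xrcc5 without ZNF. The pseudocount, filters and summed entries kept 2. Prkdc was not tested at a mean of at least 5 FPKM and Dntt not among entries above 0 in all libraries.

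Means that turned sign under median-of-ratios scaling, quantile normalization and trend removal were those of Dclre1c (0.28, 0.20 and 0.37), Xrcc4 (0.044, 0.15 and 0.29) and Xrcc6 (0.29, 0.60 and 0.82), and that of Dntt when a line was left out (-0.0090 without BBC to 0.47 without ZNF). The lymphoid minus end joining difference was 2.27 in BBC and 2.84 in BCRF8C with a pseudocount of 0.1, and 0.77, 0.44 and 0.33 in BCRF8C under the 3 scalings. The floor of the table fixes the sign of Rag1 in these lines, so the sign of this difference is no sign of stability. The causes were not tested. Unknown depth and the floor of the table limit what low values can show, above all those of Rag1 in BBC and BCRF8C and the listed 0 of Dntt in BCRF8C. The low value of Prkdc in BBC with BGJ398 is limited in the same way.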

Other observations

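Pppde2, which shares a locus with Xrcc6 and is named Desi1 in GENCODE vM21, had the same order of lines and similar ratios. It was at 14.3 and 16.0 FPKM in BBC, 87.6 and 93.0 FPKM in ZNF and 12.6 and 5.10 FPKM in BCRF8C, with log2 ratios of 0.16, 0.08 and -1.16 beside 0.11, -0.20 and -1.40 for Xrcc6. The pair was looked at after its values were seen, and 282 of 3319 exonic bases of Xrcc6 are shared with it.

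In BBC the immunoglobulin constant genes differed in direction. Igkc was higher with BGJ398, at 3726 against 2234 FPKM, while the heavy chain gene Ighm was lower, at 612 against 1301 FPKM. Ighm was chosen after its values were seen, and neither difference has a test within the line. The polymerase genes Poll and Polm, which fill gaps during end joining and were chosen after their values were seen, were under 6 FPKM in all libraries, with mean log2 ratios of -1.12 ± 0.42 (limma adjusted p = 0.0537) and -0.54 ± 0.44 (limma adjusted p = 0.221).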
